A study of Rattus norvegicus with 9 samples.

Results

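The cartilage matrix genes and the transcription factor gene Sox9 were followed in RNA of rat synovial fibroblasts, which are the stromal cells lining the joint cavity. Of 9 genes named for the set, 8 were in the deposited table, and 6 of them reached 1 FPKM in at least 1 library: Sox9, Col2a1, Acan, Hapln1, Comp and Cilp. FPKM counts fragments relative to transcript length and to the mapped fragments of the library. The 6 stand among 17298 genes in the table. Cilp2 and Chad stayed below 1 FPKM in every library, and Cytl1 was not analysed here. At the edge of the selection, Cilp reached at most 5.16 FPKM and Cilp2 at most 0.34 FPKM.

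The study had 9 libraries of wild-type cells in 3 groups of 3. In the co-culture group the cells were given IL-1β and shared a transwell, a dish divided by a porous membrane, with dermal fibroblasts in the upper chamber. The IL-1β group was given the same cytokine, an inflammatory signal of arthritic joints, without dermal fibroblasts, and the control group had routine culture without IL-1β. The labels give no strain, age, dose or time, do not say whether replicates came from separate animals or cultures, and name no empty insert for the other groups. The p-values thus rest on how far these libraries scatter, and that scatter may be technical.

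Sox9 encodes the master regulator of cartilage formation, which binds and activates Col2a1, Acan and other cartilage genes in chondrocytes. Type II collagen, from Col2a1, forms the fibrils of cartilage. Aggrecan, from Acan, is the large proteoglycan that holds water between them, and it is fixed to hyaluronan by the link protein from Hapln1. COMP is a secreted glycoprotein that binds collagen fibrils, and CILP is a protein of the middle layer of cartilage. IL-1 is known to lower cartilage matrix genes in chondrocytes, and synovium is known to hold progenitor cells that can form cartilage.

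The 6 genes were lowest in the IL-1β libraries, intermediate in co-culture and highest in control. The fall of each gene with IL-1β was larger than the spread between libraries, as was its higher level in co-culture and its remaining gap to control. Per length, Col2a1 was the most abundant of them in each group, and the genes differed in how far their levels in co-culture stood from control. In bulk RNA, fewer cells that express these genes and less RNA per cell cannot be told apart.

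Of these genes, 4 have a promoter in RefSeq's table for the rat assembly GRCr8, and the bases before their start sites are shown because these genes moved together. Coordinates are those of GRCr8, not of the authors' alignment. Capitals mark matches to GGG and CC with 5 bases of any kind between them, the frame of NF-kB sites, read on both strands, NF-kB being the factor that IL-1 activates:
Acan, chr1:142390701-142390950, forward strand: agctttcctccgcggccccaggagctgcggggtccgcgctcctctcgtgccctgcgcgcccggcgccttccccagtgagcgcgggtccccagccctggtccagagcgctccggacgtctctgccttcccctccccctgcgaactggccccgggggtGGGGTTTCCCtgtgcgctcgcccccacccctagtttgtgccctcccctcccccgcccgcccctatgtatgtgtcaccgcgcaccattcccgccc
Comp, chr16:19089549-19089798, reverse strand: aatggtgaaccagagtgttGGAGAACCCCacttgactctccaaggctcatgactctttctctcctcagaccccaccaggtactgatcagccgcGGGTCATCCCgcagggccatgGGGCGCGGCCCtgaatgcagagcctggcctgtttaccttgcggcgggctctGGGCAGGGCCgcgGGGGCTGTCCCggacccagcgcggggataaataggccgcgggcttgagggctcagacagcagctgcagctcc
Hapln1, chr2:22366717-22366966, forward strand: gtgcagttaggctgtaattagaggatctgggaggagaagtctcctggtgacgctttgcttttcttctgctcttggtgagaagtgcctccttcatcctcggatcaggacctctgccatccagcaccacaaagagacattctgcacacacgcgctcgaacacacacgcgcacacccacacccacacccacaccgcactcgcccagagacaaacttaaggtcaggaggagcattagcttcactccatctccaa
Cilp, chr8:74672198-74672447, forward strand: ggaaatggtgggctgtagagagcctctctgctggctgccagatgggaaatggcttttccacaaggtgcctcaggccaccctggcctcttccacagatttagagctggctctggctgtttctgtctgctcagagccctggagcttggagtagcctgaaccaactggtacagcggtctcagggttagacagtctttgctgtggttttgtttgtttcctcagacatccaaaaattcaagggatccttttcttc

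In these 250 bases Acan held 1 match, GGGGTTTCCC, which reads as a match on both strands and lies 94 to 85 bases before the start. Comp held matches at 7 positions, some of them overlapping, while Hapln1 and Cilp held none. Of 33469 rat promoters of the same length, 42.3% held this frame. The SOX core ACAAT and its longer form AACAAT, which contains it, were in none of the 4 windows on either strand, against 30% and 10.3% of all promoters. The AP-1 motif TGACTCA, which reads TGAGTCA on the other strand, was also in none of the 4, against 4.05% of all promoters. The windows had a GC content of 73.6% for Acan, 64.8% for Comp, 54% for Hapln1 and 52% for Cilp. These matches describe letters only. Col2a1 and Sox9 are named without sequence.

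The libraries themselves set the frame. FPKM summed to between 679774 and 741810 per library, and the sequencing depth is unknown. Of 10 markers of synovial fibroblasts, 9 had a mean of at least 1 FPKM, with Gdf5 at 0.08 to 0.31 FPKM. The 10 summed to 4627 to 4713 FPKM in co-culture, 3565 to 3695 FPKM with IL-1β and 5955 to 6252 FPKM in control, most of it Col1a1 and Col3a1. Of 9 markers that define chondrocytes, 6 stayed below 1 FPKM in every library, and Matn1, a cartilage matrilin gene, was listed at 0 in each library but IL-1β replicate 1, at 0.04 FPKM. The summed level of these 9 markers was 3.82 to 4.43 FPKM in co-culture, 2.99 to 3.66 FPKM with IL-1β and 5.98 to 6.7 FPKM in control. Without Col9a1, the most abundant, the other 8 summed to 2.01 to 2.91 FPKM in co-culture and 1.75 to 2.43 FPKM with IL-1β, which overlap, and to 3 to 3.73 FPKM in control. The sums of both lists had the order of the cartilage genes, though co-culture and IL-1β were apart for the chondrocyte markers only with Col9a1, and their part in the differences was not tested. Single synovial fibroblast markers did not all have that order. Prg4, Pdpn and Cd55 ran the opposite way, Prg4 with means of 140, 297 and 96.1 FPKM in co-culture, IL-1β and control. In the test described below, 4 of the 9 markers rose and 5 fell with IL-1β, where 20.5% of all tested genes rose and 31.2% fell. After quantile normalization the counts were 3 and 5. Has1, named after its values were seen, was among the 5 that fell. It was at 0.51 to 0.77 FPKM with IL-1β, so it was tested through the groups where it was higher. The order of the cartilage genes was also seen in the sums of 5 adipocyte markers (452 to 478, 343 to 377 and 603 to 646 FPKM in co-culture, IL-1β and control), 5 tendon markers (44.9 to 48.1, 30.3 to 30.6 and 66 to 71.9 FPKM in the same groups) and 4 pericyte and smooth muscle markers (25.4 to 27.1, 10.3 to 12.3 and 28.8 to 29.9 FPKM in the same groups). Most of the adipocyte sum was Fabp4. The abundant markers Fabp4, Thbs4, Fmod, Des and Cspg4 had this order. Co-culture and control overlapped for the tendon marker Scx and for the pericyte and smooth muscle markers Mcam and Myh11. Their part was not tested either. In co-culture, IL-1β and control, macrophage markers had sums of 25.9 to 27.8, 35.1 to 39 and 26 to 28.1 FPKM, osteoblast markers, nearly all of it Spp1, 811 to 825, 615 to 629 and 749 to 762 FPKM, keratinocyte markers 1.7 to 2.17, 1.1 to 1.46 and 1.21 to 1.54 FPKM, and endothelial markers 0.51 to 0.62, 0.72 to 1.15 and 0.6 to 0.7 FPKM. Of 4 keratinocyte markers only 2 were found in the deposited table, without Krt5 and Krt14, and nearly all of their sum was Krt10.

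The effect of IL-1β was taken first, as the question of what the cytokine does to cartilage genes in cells of the joint lining. Differences were tested with limma on log2(FPKM + 1) over 11372 genes with a mean of at least 1 FPKM, with Benjamini-Hochberg adjustment over these genes and a threshold of 0.05. The log2 fold changes below are on that scale, on which low genes change less than in their ratios, and are given with standard errors.

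Sox9 (gene ID 140586) had 1.27, 1.43 and 1.41 FPKM with IL-1β, against 5.83, 5.7 and 5.69 FPKM in control. The groups lay far apart, and the mean was 4.19-fold lower with IL-1β. Its log2 fold change was -1.51 ± 0.07 (limma adjusted p = 4.7e-09).

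Col2a1 (gene ID 25412) had 19.72, 17.22 and 17.39 FPKM with IL-1β, against 159.93, 161.19 and 149.54 FPKM in control. Each IL-1β library was far below each control library, 8.66-fold on the means. The log2 fold change of -3.05 ± 0.05 (limma adjusted p = 5e-13) was the third-lowest of all genes tested, and by mean level Col2a1 stood at place 4786 of the tested genes with IL-1β and at place 669 in control.

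Acan (gene ID 58968) had 2.26, 2.2 and 2.21 FPKM with IL-1β, against 24.77, 24.33 and 23.2 FPKM in control. The IL-1β libraries were nearly level with each other, and the mean was 10.8-fold lower. The log2 fold change was -2.96 ± 0.05 (limma adjusted p = 6.1e-13), the fifth-lowest of all genes tested.

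Hapln1 (gene ID 29331) had 1.39, 1.68 and 2.08 FPKM with IL-1β, against 8.38, 8.65 and 8.59 FPKM in control. The link protein gene thus scattered more among the IL-1β libraries, with a coefficient of variation of 20%, than among the control libraries, with 1.7%, but the groups did not overlap. The log2 fold change was -1.82 ± 0.08 (limma adjusted p = 4.1e-09).

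Comp (gene ID 25304) had 2.49, 1.93 and 2.45 FPKM with IL-1β, against 11.6, 13 and 11.73 FPKM in control. All IL-1β libraries were below all control libraries. The log2 fold change was -2 ± 0.07 (limma adjusted p = 6.6e-10), and the mean was 5.29-fold lower.

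Cilp (gene ID 315761) had 0.3, 0.29 and 0.31 FPKM with IL-1β, against 4.62, 5.16 and 4.76 FPKM in control. It was at 1 FPKM or more in the control libraries only, so it entered the tested genes through the group where it was high, and a difference from that group follows from this. By the ratio of means it was 16.2-fold lower, the largest ratio of the 6 genes, while its log2 fold change of -2.17 ± 0.07 (limma adjusted p = 2.2e-10) was smaller than those of Col2a1 and Acan. With a pseudocount of 0.1 in place of 1, its log2 fold change was -3.63, beyond -3.38 for Acan and -3.11 for Col2a1.

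Cilp is left out of the counts against control for that reason. Of the 5 genes at 1 FPKM or more in all 9 libraries, 5 fell, where 31.2% of all tested genes fell and 20.5% rose, and after median-of-ratios scaling the calls over all genes were 2887 higher and 2877 lower in place of 2330 and 3544. The ranges of the groups did not overlap for any of the 5, as for 35% of all tested genes in this direction. The median log2 fold change was -2 over the 5 genes and -0.044 over all genes. The central 90% of all tested genes lay between -0.63 and 0.64, and each of the 5 lay below that span.

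**Figure D1:**
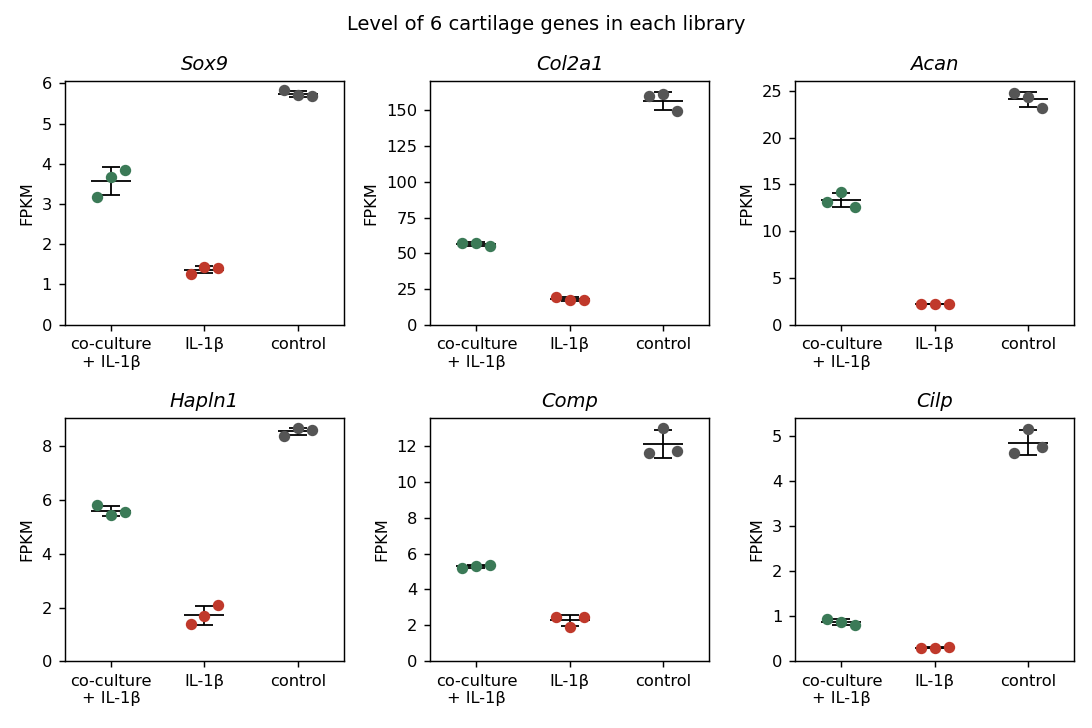
FPKM (y axis, linear, from 0) of Sox9, Col2a1, Acan, Hapln1, Comp and Cilp in co-culture with IL-1β, IL-1β alone and control. Points are libraries, horizontal lines are means and bars are SD (n = 3); in each panel the IL-1β libraries are lowest, the co-culture libraries lie between and no group overlaps another, as with Acan at 12.63 to 14.15, 2.2 to 2.26 and 23.2 to 24.77 FPKM in co-culture, IL-1β and control.

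The gene called Cilp2, a paralog of Cilp, and the gene of chondroadherin, Chad, a leucine-rich cartilage protein, were too low for the test. Cilp2 (gene ID 306356) was listed at 0.21, 0.19 and 0.12 FPKM in co-culture, 0.11, 0.11 and 0.14 FPKM with IL-1β and 0.29, 0.34 and 0.34 FPKM in control. The control libraries were thus highest here too, at levels where the 2 decimals of the table are coarse. Without the filter on low values, its log2 fold change with IL-1β was -0.24 ± 0.04 (limma adjusted p = 0.00062). It was 0.07 ± 0.04 in co-culture against IL-1β (limma adjusted p = 0.2) and -0.17 ± 0.04 in co-culture against control (limma adjusted p = 0.013). Chad (gene ID 29195) was listed at 0, 0.02 and 0.08 FPKM in co-culture, 0.09, 0.05 and 0.05 FPKM with IL-1β and 0.02, 0.12 and 0.02 FPKM in control, and its groups overlapped.

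The co-culture libraries were then set against IL-1β alone, which asks how the cartilage genes differed when dermal fibroblasts were in the upper chamber. The IL-1β libraries are the same as above, and no group analysed here had dermal fibroblasts without IL-1β.

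Acan had the largest difference of the 6 genes, with 13.16, 14.15 and 12.63 FPKM in co-culture, against 2.26, 2.2 and 2.21 FPKM with IL-1β alone. Its mean was 5.99-fold higher in co-culture. The log2 fold change was 2.15 ± 0.05 (limma adjusted p = 2.5e-11), the fourth-highest of all genes tested.

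Col2a1 had 57.02, 57.17 and 55.13 FPKM in co-culture, against 19.72, 17.22 and 17.39 FPKM with IL-1β alone. The mean was 3.12-fold higher and the libraries of a group were close together. Its log2 fold change was 1.59 ± 0.05 (limma adjusted p = 3.2e-10).

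Hapln1 had 5.8, 5.42 and 5.53 FPKM in co-culture, against 1.39, 1.68 and 2.08 FPKM with IL-1β alone. The link protein gene was thus 3.25-fold higher on the means, at 1.28 ± 0.08 on the log2 scale (limma adjusted p = 1.6e-07).

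Sox9 had 3.17, 3.68 and 3.85 FPKM in co-culture, against 1.27, 1.43 and 1.41 FPKM with IL-1β alone. Co-culture replicate 1 was the lowest of its group and still above every IL-1β library. The log2 fold change was 0.94 ± 0.07 (limma adjusted p = 5.1e-07).

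Comp had 5.2, 5.33 and 5.34 FPKM in co-culture, against 2.49, 1.93 and 2.45 FPKM with IL-1β alone, and its log2 fold change was 0.94 ± 0.07 (limma adjusted p = 9.2e-07). Cilp had 0.94, 0.88 and 0.81 FPKM in co-culture, against 0.3, 0.29 and 0.31 FPKM with IL-1β alone. Cilp thus stayed below 1 FPKM in each of these libraries, and its log2 fold change of 0.53 ± 0.07 (limma adjusted p = 7e-05) was the smallest of the 6, although its ratio of means, 2.92, was above those of Sox9, 2.6, and Comp, 2.31.

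Of the same 5 genes, 5 were higher in co-culture than with IL-1β alone, where 33.3% of all tested genes were higher and 16.7% lower, and after median-of-ratios scaling the calls over all genes were 2721 higher and 2636 lower in place of 3786 and 1901. Cilp was higher too. The ranges of the groups did not overlap for any of them, as for 37.3% of all tested genes in this direction. The median log2 fold change was 1.28 over the 5 genes and 0.062 over all genes.

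Against control, the cartilage genes in co-culture were lower. Of the 5 genes without Cilp, 5 were called lower, where 7.91% of all tested genes were lower and 12.4% higher, and their ranges did not overlap with control, as for 15.6% of all tested genes in this direction. After quantile normalization the calls over all genes were 1008 higher and 1166 lower, and after median-of-ratios scaling 1146 and 1073, in place of 1408 and 899. The median log2 fold change was -0.81 over the 5 genes and 0.018 over all genes. Cilp, at 0.877 ± 0.065 FPKM in co-culture and 4.85 ± 0.28 FPKM in control (SD, n = 3 each), had a log2 difference of -1.64 ± 0.07 (limma adjusted p = 2.1e-08), the second-lowest of all genes tested. The same limit holds for it as above, that it was at 1 FPKM only in control.

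Col2a1 averaged 56.4 ± 1.1 FPKM in co-culture and 157 ± 6.4 FPKM in control, and its log2 fold change was -1.46 ± 0.05 (limma adjusted p = 4.1e-09). Comp averaged 5.29 ± 0.078 and 12.1 ± 0.77 FPKM in co-culture and control (log2 fold change -1.06 ± 0.07, limma adjusted p = 1.3e-06). The other matrix genes and Sox9 stood closer to control. Acan was 1.81-fold lower in co-culture than in control, at -0.81 ± 0.05 on the log2 scale (limma adjusted p = 5.5e-07). Sox9 was 1.61-fold lower, with -0.57 ± 0.07 (limma adjusted p = 0.00014), and Hapln1 1.53-fold lower, with -0.54 ± 0.08 (limma adjusted p = 7e-04).

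**Figure D2:**
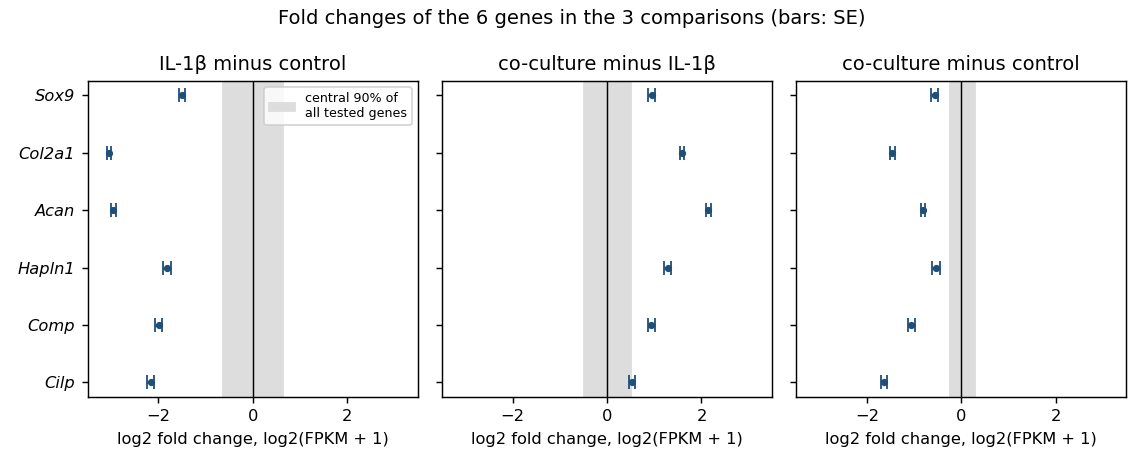
Log2 fold change on the log2(FPKM + 1) scale (x axis) of the 6 genes in the 3 comparisons; points are limma estimates and bars their standard errors. The grey band holds the central 90% of all tested genes, from -0.63 to 0.64 with IL-1β against control, and the 6 genes lie to its left with IL-1β, to its right in co-culture against IL-1β and to its left in co-culture against control. In co-culture against IL-1β the band ends at 0.498, and the bar of Cilp, at 0.529 ± 0.069, reaches into it.

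How much of the IL-1β change was left in co-culture was expressed as the co-culture minus control difference in percent of the IL-1β minus control difference, both on the log2(FPKM + 1) scale and both using the same control libraries. It is a description without a test. The share was lowest for Acan, 27.4% (27.9, 24.6 and 29.7% in the 3 co-culture libraries), and Hapln1, 29.4% (26.8, 31.4 and 30%), whose libraries overlapped. Sox9 followed at 37.4%, with 45.9, 34.9 and 31.5%, the widest scatter of the 6 genes. The genes of aggrecan and its link protein thus had the lowest shares.

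Col2a1 kept 47.8% of its change (47.4, 47.2 and 48.9%) and Comp 53% (54, 52.5 and 52.4%), with no overlap between them. Of the 5 genes at 1 FPKM or more in every library, Col2a1 and Comp thus had the highest shares. Cilp was at 75.6% (73.4, 75.5 and 78%), but both of its differences are taken from control, the group through which it was tested. With a pseudocount of 0.1 the order of the genes stayed the same, from 25.2% for Acan to 64.5% for Cilp. When each of the 9 libraries was left out in turn, Sox9 moved most, between 33.2 and 40.4%.

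**Figure D3:**
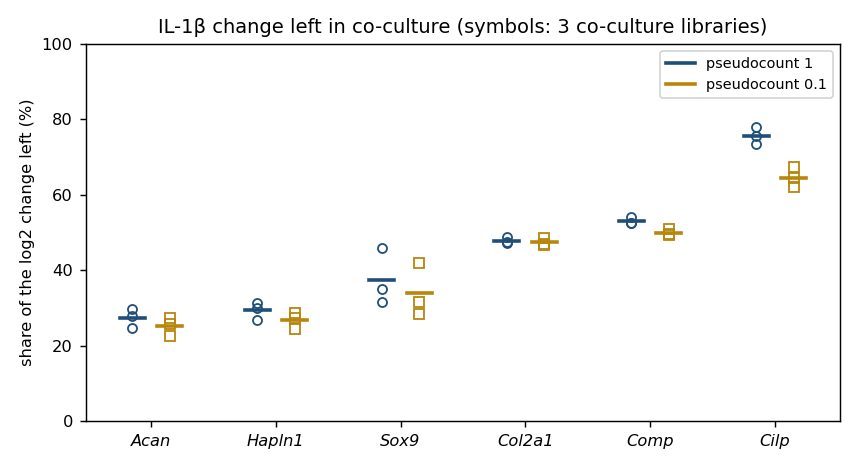
Share of the IL-1β log2 change left in co-culture (y axis, percent) for each gene, with a pseudocount of 1 (circles) and 0.1 (squares); symbols are the 3 co-culture libraries and lines the value from the group means. Acan and Hapln1 lie near 27.4 and 29.4%, Col2a1 and Comp near 47.8 and 53%, and Cilp at 75.6% with the pseudocount of 1.

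Levels per length were then ranked within each group. In control the order was Col2a1, Acan, Comp, Hapln1, Sox9 and Cilp, with no overlap between neighbours. In co-culture Hapln1, at 5.58 FPKM, stood just above Comp, at 5.29 FPKM, again with no overlap between neighbours. With IL-1β alone Comp and Acan overlapped, at means of 2.29 and 2.22 FPKM, and so did Hapln1 and Sox9, at 1.72 and 1.37 FPKM. The submitters' processing notes name a mouse genome build, so an order between genes is less certain than an order between groups for 1 gene.

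Ratios of 2 genes within a library, taken on FPKM + 1, depend little on how the library was scaled. For 5 pairs and 3 comparisons, 15 in all, the groups were compared with a two-sided exact permutation test, whose smallest possible p with 3 against 3 libraries is 0.1. All 15 reached it, with an adjusted p of 0.1, so none passed the threshold. The log2 ratio of Acan to Sox9 was 1.65 ± 0.14 in co-culture, 0.44 ± 0.07 with IL-1β and 1.9 ± 0.04 in control (SD, n = 3 each). Acan thus lay closer to Sox9 with IL-1β than in the other groups. The log2 ratio of Col2a1 to Sox9 was 3.66 ± 0.13 in co-culture, 3.01 ± 0.16 with IL-1β and 4.55 ± 0.05 in control.

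Of the proteoglycan and its link protein, the log2 ratio of Acan to Hapln1 was 1.12 ± 0.1 in co-culture, 0.25 ± 0.19 with IL-1β and 1.4 ± 0.06 in control. The ratio of Comp to Col2a1 ran the other way, at -3.19 ± 0.04 in co-culture, -2.54 ± 0.11 with IL-1β and -3.59 ± 0.07 in control, with the highest values in the IL-1β libraries. The log2 ratio of Cilp to Cilp2 was 0.68 ± 0.02 in co-culture, 0.22 ± 0.01 with IL-1β and 2.14 ± 0.05 in control, with Cilp2 far below the 1 FPKM that was added. In each of the 15 comparisons the ranges of the groups did not overlap.

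**Figure D4:**
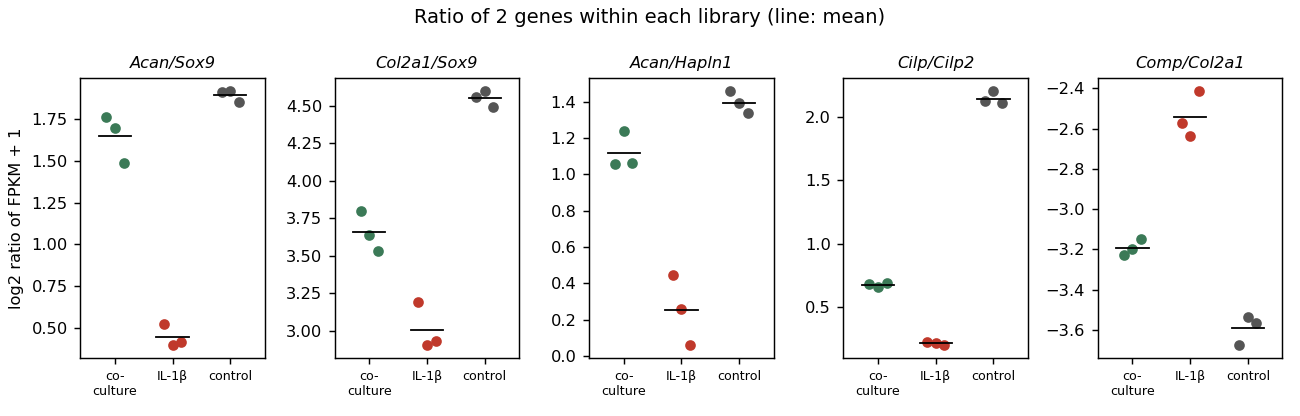
Log2 ratio of FPKM + 1 (y axis) of 5 gene pairs within each library, by group; points are libraries and lines are means (n = 3). The ratio of Acan to Sox9 averages 1.65 in co-culture, 0.44 with IL-1β and 1.9 in control, and that of Comp to Col2a1 is highest with IL-1β, at -2.54.

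Genes with the most similar pattern were found by the root-mean-square difference of log2(FPKM + 1), each gene centred on its own mean over the 9 libraries. The gene closest to Acan was Tgfbi, which encodes a TGF-beta-induced matrix adaptor, at a difference of 0.063. It had 95.79, 97.12 and 98.66 FPKM in co-culture, 20.28, 20.87 and 19.54 FPKM with IL-1β and 177.05, 176.01 and 173.06 FPKM in control. Car3, a carbonic anhydrase gene, followed at 0.145.

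Genes near Col2a1 were at larger differences: Cthrc1, a secreted collagen triple helix repeat protein gene, at 0.206, and Aoc3, an amine oxidase gene, at 0.227. Few genes changed as much as Col2a1, so these larger differences need not mean a less shared pattern. Closest to Sox9 were Itgbl1, an integrin beta-like protein gene, at 0.05, the keratin gene Krt8 at 0.057 and Lgr4, a receptor gene for R-spondins, at 0.058. Lgr4 had 19.19, 20.7 and 21.28 FPKM in co-culture, 9.03, 9.6 and 9.95 FPKM with IL-1β and 28.77, 27.06 and 28.41 FPKM in control. Sox9 ran from 1.27 to 5.83 FPKM, so the added 1 FPKM shrank its changes more than those of Lgr4. Krt8 was as low as 0.59 FPKM with IL-1β. Closeness on this scale is thus not equality of ratios, and no other pseudocount was tried for it.

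Other cartilage genes were described from lists, whose counts are to be read against the shares of all tested genes. With IL-1β, 20.5% of all genes rose and 31.2% fell, in co-culture against IL-1β 33.3% were higher and 16.7% lower, and in co-culture against control 7.91% were lower. These shares are of the fit without scaling. After median-of-ratios scaling, 2887 of the 11372 genes rose and 2877 fell with IL-1β. In co-culture against IL-1β 2721 were higher and 2636 lower. After quantile normalization the counts were 2463 and 3448 with IL-1β, and 3199 and 2289 in co-culture against IL-1β. Of 7 minor cartilage collagens, whose chains join type II collagen fibrils or mark cartilage, 3 were tested, and 3 fell with IL-1β. The 3 were higher in co-culture than with IL-1β, and lower there than in control. Their medians were -0.93, 0.27 and -0.66 on the log2 scale. Col11a1, a chain of the type XI collagen that nucleates these fibrils, averaged 49.9 ± 0.98 FPKM in co-culture, 18.3 ± 0.19 FPKM with IL-1β and 84.4 ± 1.42 FPKM in control. With IL-1β it fell, at -2.15 ± 0.03 on the log2 scale (limma adjusted p = 1.6e-13). Col9a1, which decorates the fibrils, averaged 1.6 ± 0.19, 1.16 ± 0.13 and 3.1 ± 0.22 FPKM in co-culture, IL-1β and control, and Col27a1 4.43 ± 0.06, 3.5 ± 0.26 and 5.85 ± 0.18 FPKM in co-culture, IL-1β and control. The partner chain genes, named after their values were seen, had means too low for the test. Col9a3 had 0.83, 0.72 and 0.8 FPKM in co-culture, 0.44, 0.39 and 0.29 FPKM with IL-1β and 1.63, 2.03 and 1.46 FPKM in control, without overlap. Col9a2 and Col11a2 stayed at or below 0.28 and 0.34 FPKM.

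Of 20 other cartilage matrix and chondrocyte genes, 7 were tested. With IL-1β 4 fell and 0 rose, where 31.2% of all genes fell, with a median of -0.44, and in co-culture against IL-1β 4 were higher and 0 lower, where 33.3% of all genes were higher, but 2 of the 7 were higher with the median-of-ratios factors and 3 with quantile normalization. Clec3b, the tetranectin gene, had a log2 fold change of -1.89 ± 0.1 with IL-1β (limma adjusted p = 2.3e-08) and of 1.06 ± 0.1 in co-culture against IL-1β (limma adjusted p = 5.6e-06). It averaged 2.23 ± 0.37, 0.55 ± 0.17 and 4.72 ± 0.35 FPKM in co-culture, IL-1β and control. Clec3b was below 1 FPKM in each IL-1β library, so it was tested through the groups where it was high, a limit like that of Cilp. It is counted among the 4 that fell and the 4 that were higher in co-culture, so the limit holds for those counts too. Fmod, the fibromodulin gene, averaged 11.4 ± 0.22 FPKM in co-culture, 9.65 ± 0.2 FPKM with IL-1β and 13.5 ± 0.66 FPKM in control. Prelp, a leucine-rich proteoglycan gene, averaged 74.7 ± 2.43, 68 ± 0.56 and 92.7 ± 2.87 FPKM in co-culture, IL-1β and control, and its higher level in co-culture than with IL-1β (limma adjusted p = 0.0068) was lost after median-of-ratios scaling (limma adjusted p = 0.14).

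Of 14 tested transcription factors of cartilage formation, 8 fell and 3 rose with IL-1β, where 31.2% of all genes fell and 20.5% rose. The counts were 7 and 3 after quantile normalization. The median of the 14 genes was -0.26. In co-culture against IL-1β 7 were higher and 4 lower, where 33.3% and 16.7% of all genes were. Under both scalings the counts were 6 and 5. Epas1, which encodes HIF-2α, rose with IL-1β to 46.7 ± 3.11 FPKM, against 12.6 ± 1.05 FPKM in control, and stood at 14.9 ± 0.59 FPKM in co-culture. Its log2 fold change with IL-1β was 1.82 ± 0.06 (limma adjusted p = 4.4e-10). Hif1a, another hypoxia factor gene, averaged 143 ± 2.1, 167 ± 7.14 and 141 ± 1.33 FPKM in co-culture, IL-1β and control, and Runx1 24.3 ± 1.01, 17 ± 0.49 and 29.4 ± 0.28 FPKM in co-culture, IL-1β and control.

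Sox5 and Sox6, named after their values were seen, encode the partners of SOX9 in cartilage. Sox5 had 2.91, 3.25 and 3 FPKM with IL-1β, against 2.94, 2.78 and 2.7 FPKM in control, with a log2 fold change of 0.09 ± 0.06 that missed the threshold (limma adjusted p = 0.24). In co-culture it had 2.29, 2.29 and 2.37 FPKM and was lower than with IL-1β (log2 fold change -0.29 ± 0.06, limma adjusted p = 0.0021). Against control it was lower in co-culture too (log2 fold change -0.2 ± 0.06, limma adjusted p = 0.039), but not after quantile normalization (limma adjusted p = 0.058). Sox5 was thus ordered otherwise than Sox9, with its lowest levels in co-culture. Sox6 stayed between 0.37 and 0.81 FPKM and was not tested.

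A list of growth signals of cartilage formation, their receptors, signal transducers and antagonists had 24 tested genes. With IL-1β 10 rose and 9 fell, where 20.5% of all genes rose and 31.2% fell. Under both scalings the counts were 10 and 8. The median of the 24 genes, -0.044, was that of all genes. Fgf2, named after its values were seen, was among the 10 that rose. It was below 1 FPKM in each control library, so it was tested through the groups where it was higher, a limit like that of Cilp. In co-culture against IL-1β 8 of the 24 were higher and 7 lower. The 8 of 24 equal the 33.3% of all genes that were higher, and the 7 of 24 were above the 16.7% that were lower. After scaling the counts were 6 and 9 (median-of-ratios) and 7 and 8 (quantile). Ctgf, which encodes the matricellular protein CCN2, averaged 281 ± 5.18 FPKM in co-culture, 98.2 ± 3 FPKM with IL-1β and 378 ± 9.07 FPKM in control. Nov, which encodes CCN3 of the same family, ran the other way, at 76.1 ± 0.97, 192 ± 2.82 and 32.4 ± 0.47 FPKM in co-culture, IL-1β and control, and its log2 fold change with IL-1β was 2.54 ± 0.03 (limma adjusted p = 1.4e-14). Grem1, which encodes the BMP antagonist gremlin, averaged 430 ± 8.93, 672 ± 13.2 and 307 ± 3.82 FPKM in co-culture, IL-1β and control.

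Of 21 tested genes of enzymes and transporters that build the chondroitin sulfate chains of aggrecan, 10 fell and 6 rose with IL-1β. Of all genes 31.2% fell and 20.5% rose. After scaling the counts were 7 and 6 (median-of-ratios) and 9 and 6 (quantile). The median of the 21 genes was -0.11. In co-culture against IL-1β 7 were higher and 4 lower, close to the 33.3% and 16.7% of all genes. After scaling the counts were 5 and 5 (median-of-ratios) and 6 and 4 (quantile). Chsy3, a chondroitin synthase gene, averaged 11.5 ± 0.52 FPKM in co-culture, 32.6 ± 0.41 FPKM with IL-1β and 7.37 ± 0.65 FPKM in control. Csgalnact1, whose product starts the chains, averaged 27.1 ± 0.85, 41.5 ± 0.79 and 21.3 ± 0.9 FPKM in co-culture, IL-1β and control, and rose with IL-1β (log2 fold change 0.93 ± 0.04, limma adjusted p = 3.1e-09). Chst12, a chondroitin sulfotransferase gene, averaged 52.6 ± 1.66, 63 ± 4.33 and 45.8 ± 2.89 FPKM in co-culture, IL-1β and control.

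Of 11 tested genes of enzymes that cleave aggrecan or COMP and of their inhibitor, 6 rose and 3 fell with IL-1β, where 20.5% of all genes rose and 31.2% fell, with a median of 0.4. In co-culture against IL-1β 2 were higher and 5 lower, where 33.3% and 16.7% of all genes were. The inhibitor gene Timp3, named after its values were seen, was among the 6 that rose and the 5 that were lower. It averaged 3.27 ± 0.16, 8.49 ± 0.25 and 4.54 ± 0.12 FPKM in co-culture, IL-1β and control. The stromelysin gene Mmp3 averaged 844 ± 5.54 FPKM in co-culture, 3556 ± 35.3 FPKM with IL-1β and 196 ± 4.1 FPKM in control, and the collagenase gene Mmp13 71.6 ± 0.49, 780 ± 33 and 73.2 ± 0.65 FPKM in co-culture, IL-1β and control. The 7 tested genes of the ADAMTS proteases, named after their values were seen, differed among themselves. With IL-1β Adamts7, whose product cleaves COMP, rose to 19.8 ± 0.52 FPKM, against 3.17 ± 0.2 FPKM in control (limma adjusted p = 1.1e-11), and Adamts1 rose to 118 ± 2.72 FPKM, against 82.2 ± 1.06 FPKM in control (limma adjusted p = 3.2e-08). Adamts12, another gene of a COMP-cleaving protease, rose to 5.48 ± 0.27 FPKM with IL-1β, against 3.9 ± 0.19 FPKM in control (limma adjusted p = 6.5e-05). Adamts15 fell to 1.95 ± 0.13 FPKM with IL-1β, against 6.02 ± 0.28 FPKM in control (limma adjusted p = 1.1e-08), and Adamts9 fell to 6.8 ± 0.3 FPKM, against 11.7 ± 0.05 FPKM in control (limma adjusted p = 1.1e-07). The aggrecanase genes Adamts4 and Adamts5 averaged 3.35 ± 0.68 and 31.5 ± 2.51 FPKM with IL-1β, against 3.23 ± 0.13 and 31.8 ± 0.27 FPKM in control (limma adjusted p = 0.8 and 0.82).

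Of 9 tested genes that make, bind or cleave hyaluronan, to which aggrecan and link protein attach, 4 rose and 4 fell with IL-1β. Of all genes 20.5% rose and 31.2% fell. Under both scalings the counts were 4 and 3. In co-culture against IL-1β 4 were higher and 4 lower, where 33.3% and 16.7% of all genes were. The counts were 2 and 4 (median-of-ratios) and 1 and 4 (quantile) after scaling. Has1, named after its values were seen, was among the 4 that fell and the 4 that were higher. It was below 1 FPKM in each IL-1β library, so it was tested through the groups where it was higher, a limit like that of Cilp. Cd44, the hyaluronan receptor gene, averaged 150 ± 1.38, 288 ± 2.72 and 136 ± 1.31 FPKM in co-culture, IL-1β and control. Tnfaip6, which encodes the hyaluronan-binding protein TSG-6, averaged 42.8 ± 1.09, 80.2 ± 3.18 and 28.1 ± 2.86 FPKM in co-culture, IL-1β and control. Vcan, the versican gene, a large proteoglycan that also binds hyaluronan and link protein, averaged 232 ± 5.94, 313 ± 9.5 and 212 ± 5.32 FPKM in co-culture, IL-1β and control. Acan and Vcan thus moved in opposite directions with IL-1β, at log2 fold changes of -2.96 ± 0.05 and 0.56 ± 0.03 (limma adjusted p = 6.1e-13 and 5.6e-08).

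**Figure D5:**
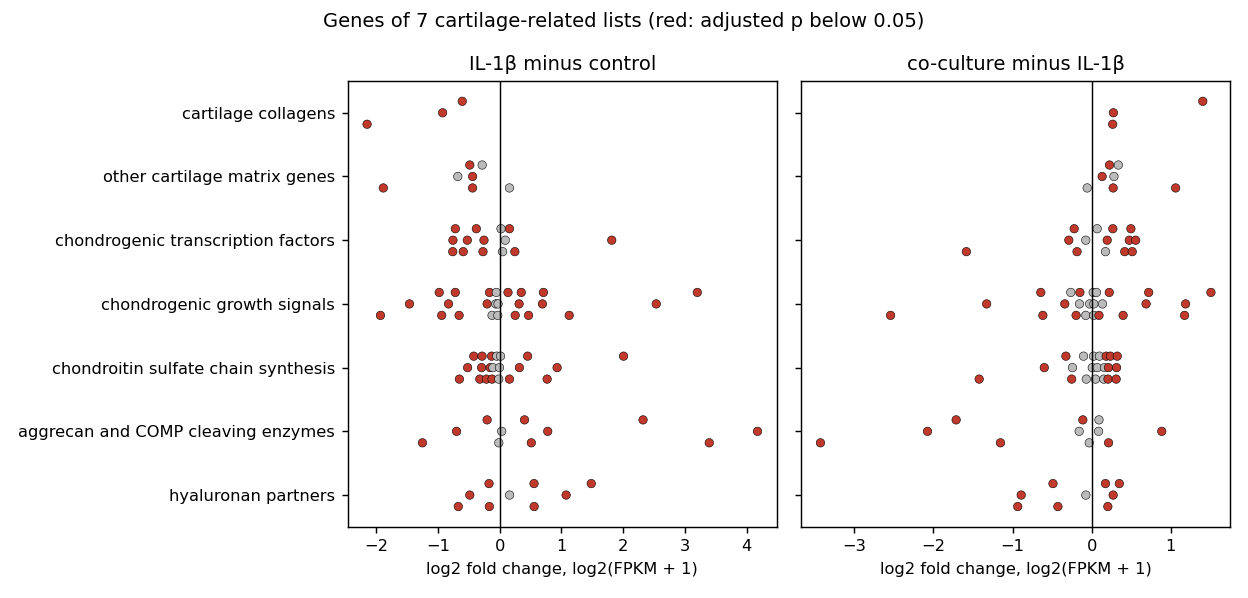
Log2 fold changes (x axis, log2(FPKM + 1) scale) of the tested genes of 7 cartilage-related lists, with IL-1β against control on the left and co-culture against IL-1β on the right; each point is a gene, red where the limma adjusted p was below 0.05. The 3 tested cartilage collagens lie left of 0 with IL-1β and right of 0 in co-culture, while the growth signals, with 10 higher and 9 lower with IL-1β, lie on both sides.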

How the data were processed

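The deposited values are FPKM, per the file headers, written with 2 decimals for 17298 genes in 9 libraries. Per the labels' protocols, libraries were made from poly(A) RNA with random-primed cDNA. For the aligner, quantifier and annotation, nothing is stated in the sources. The submitters' processing notes name GRCm38, a mouse build, while 93.4% of the gene identifiers were found in the rat RefSeq table of GRCr8. Which sequence the reads were aligned to was not settled. No counts were used and the depth is unknown: among genes at 0 in some libraries, the smallest value above 0 had a median of 0.04 FPKM, too few decimals to recover reads.

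Genes with a mean of at least 1 FPKM (11372) were fitted as log2(FPKM + 1) by limma (version 3.58.1; R 4.3.3), using a mean per group, a mean-variance trend and robust settings, tested on simulated data. Groups came from the titles. Fit alternatives were another pseudocount, 2 other filters, 2 scalings, plain empirical Bayes, fits on 2 groups, a replicate block and leaving out each library.

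The cartilage genes and the lists were chosen with earlier results of these data known. From each list the genes named were the 2 with the smallest p with IL-1β, the 2 with the smallest p in co-culture against IL-1β and the most abundant, and 3 nearest patterns were taken for each of Acan, Col2a1 and Sox9, of which 1 gene is not reported here. Old symbols were matched by gene ID.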

Additional observations from a re-analysis of the deposited data

How the results depend on the processing

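The 6 genes kept their direction and their side of the threshold in all 3 comparisons under each alternative that tested them. For Cilp against control, the limit given above holds here too. A filter at a mean of 5 FPKM removed Sox9 and Cilp and left 4 genes to test. Leaving out each library in turn gave log2 fold changes of -3.11 to -3.02 for Col2a1 and of -1.53 to -1.48 for Sox9 with IL-1β, and of 0.51 to 0.56 for Cilp in co-culture against IL-1β. A pseudocount of 0.1 changed the log2 fold change of Cilp in co-culture against IL-1β to 1.29, from 0.53. Counts of genes called over all genes stayed within 1.5 times under each alternative, and the within-library ratios kept their sign with a pseudocount of 0.1 and without each library.

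Same-numbered libraries of different groups were not shown to be paired: the 9 correlations of their deviations across genes, which are not independent replicates, ran from -0.046 to 0.189. With the replicate number as a block, the 5 genes without Cilp remained called in each comparison, and all genes called with IL-1β were 2329 higher and 3529 lower. Cilp remained called too, but against control the limit given above holds for it. Unknown depth limits what can be said of Cilp2 and Chad, and the spread rests on 3 libraries a group.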
